A study of Oryza sativa Indica Group with 5 samples.

Results

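The acid invertases described here are 5 loci of rice that split sucrose into glucose and fructose at acidic pH, chosen by locus name: the cell-wall invertases GIF1 (also CIN2, LOC_Os04g33740), CIN1 (LOC_Os02g33110) and CIN3 (LOC_Os04g33720), and the vacuolar invertases LOC_Os04g45290 and LOC_Os02g01590. They are 5 of 48857 loci on the array and had 9 probes in all, each in 1 spot. GIF1 led to this choice because its signal differed between the groups compared below, so the difference is given as a description, with no test. Developing seed was taken 16 days after anthesis from untreated indica rice plants kept under glass with 29 °C days and 21 °C nights, and its total RNA was hybridised to single-colour Agilent arrays. Haplotype 8 accessions, which have high-amylose grain, gave 3 arrays, and haplotype 4 accessions, which have waxy grain (starch with little or no amylose), gave 2. Each array holds another accession, so the spread within a group includes genetic differences between accessions as well as array error.

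Sucrose arrives in the filling grain through the phloem, and there it is cleaved either by invertases or by sucrose synthase. Cell-wall invertases act in the apoplast, where the hexoses they release can be taken up by monosaccharide transporters, while vacuolar invertases act inside the cell and are known for their part in hexose storage and cell expansion. GIF1, for GRAIN INCOMPLETE FILLING 1, is known as a cell-wall invertase needed for carbon partitioning in early grain filling of rice. The RefSeq gene table of assembly ASM3414082v1 gives GIF1 and CIN2 as names of 1 gene on chromosome 4, with CIN3 as the next coding gene beside it, and CIN1 on chromosome 2.

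The 75th percentile of the processed signal, by which each array was scaled, was 183, 108 and 88.8 on high-amylose replicates 1, 2 and 3, against 203 and 212 on waxy replicates 1 and 2. High-amylose replicates 2 and 3 were thus dimmer than the other 3 arrays. They shared a scan date, high-amylose replicate 1 had another and the waxy arrays shared one that no high-amylose array had, so scan date and group cannot be told apart. All 9 tested markers of starchy endosperm, among them glutelins and the ADP-glucose transporter BT1, were well above background on every array. Probes spotted more than once, with signals of 20 to 200, differed between their spots of 1 array by a median SD of 0.13 to 0.16 on the log2 scale.

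GIF1 was higher on each high-amylose array than on either waxy array. Its processed signal was 83.7, 58.1 and 199 on high-amylose replicates 1, 2 and 3, against 22.8 and 23.3 on waxy replicates 1 and 2, and the spot was well above background on all 5 arrays. Relative to each array's 75th percentile, it stood on the log2 scale at -1.13, -0.90 and 1.17 on the high-amylose arrays (mean -0.29, SD 1.26, n = 3) and -3.15 and -3.19 on the waxy arrays (mean -3.17, SD 0.02, n = 2). The groups did not overlap. High-amylose replicate 3 stood highest, replicates 1 and 2 lay close together below it, and the waxy arrays were nearly the same.

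On average GIF1 was 7.37-fold higher in high-amylose seed, a log2 difference of 2.88 (SE 0.66 from the limma fit over all loci). Against the waxy mean, the scaled signal was 4.10-fold, 4.84-fold and 20.2-fold higher on high-amylose replicates 1, 2 and 3. The lowest high-amylose array lay 4.06-fold above the highest waxy array, and the high-amylose arrays differed among themselves by up to 4.91-fold. The waxy spots were dim: they reached 1.38 and 1.47 times the lowest signal called well above background on their arrays, where the high-amylose spots reached 5.41, 3.85 and 15.2 times. The log2 difference was 2.16 without high-amylose replicate 3. It was 2.04 where high-amylose replicate 1 alone was set against waxy seed, 2.10 with no scaling between arrays, and 1.27 under normexp background correction followed by quantile scaling. In bulk seed, fewer cells that express a gene and less of its RNA per cell cannot be told apart.

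**Figure D1:**
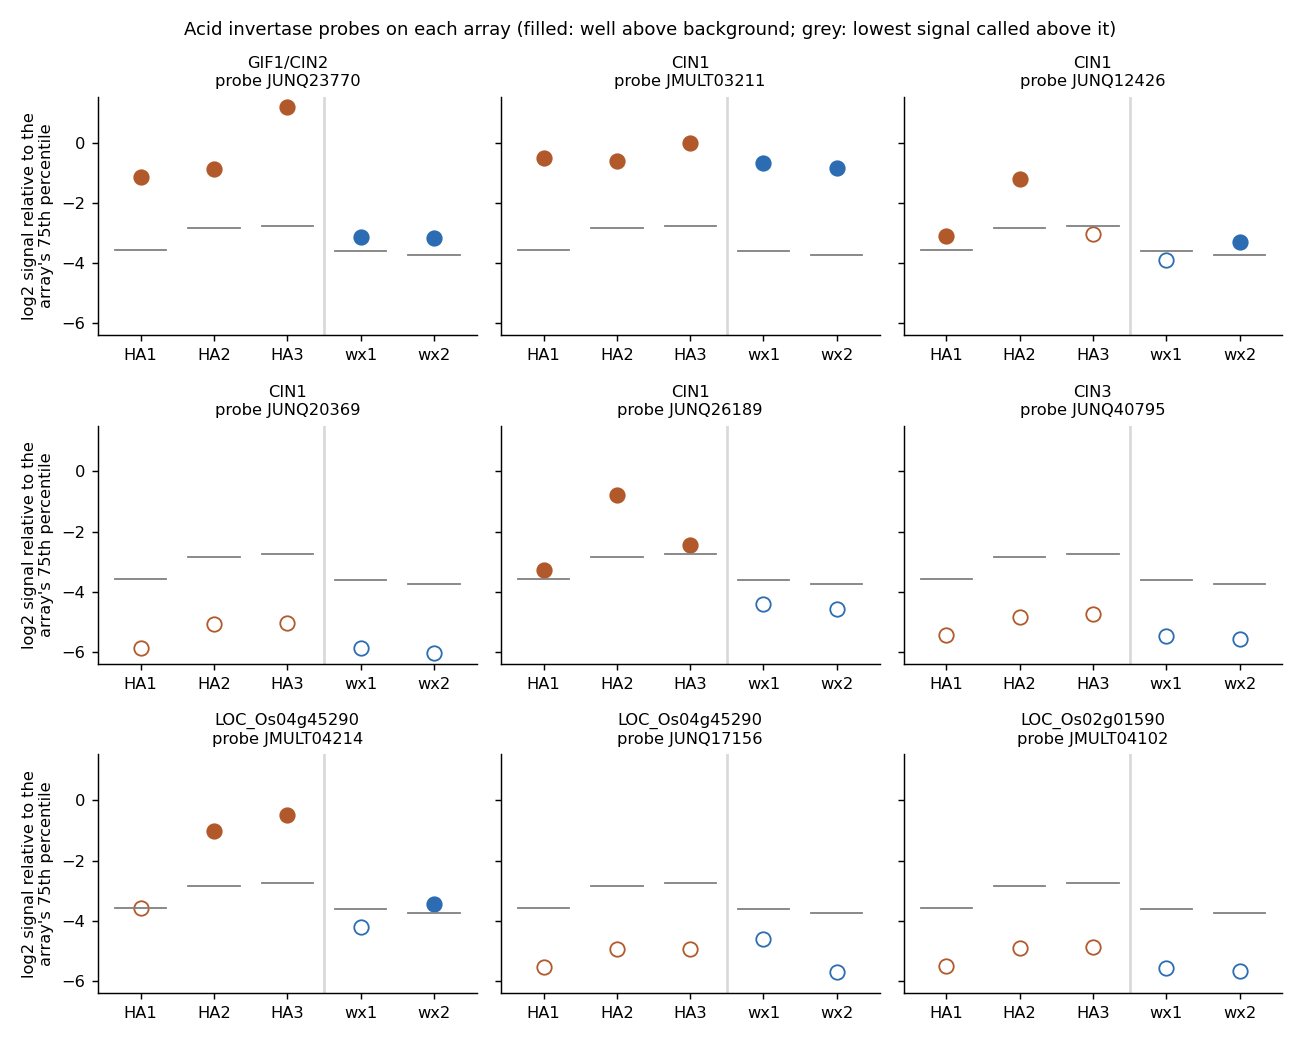
Log2 signal relative to the array's 75th percentile (y axis) of the 9 acid invertase probes on high-amylose replicates 1 to 3 (HA, brown) and waxy replicates 1 and 2 (wx, blue). Filled points were well above background, open points were not, and grey lines mark the lowest signal called well above background on that array. GIF1 was at -1.13, -0.90 and 1.17 on the high-amylose arrays, above -3.15 and -3.19 on the waxy arrays, and the single probes of CIN3 and LOC_Os02g01590 lay under the grey line on every array.

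**Figure D2:**
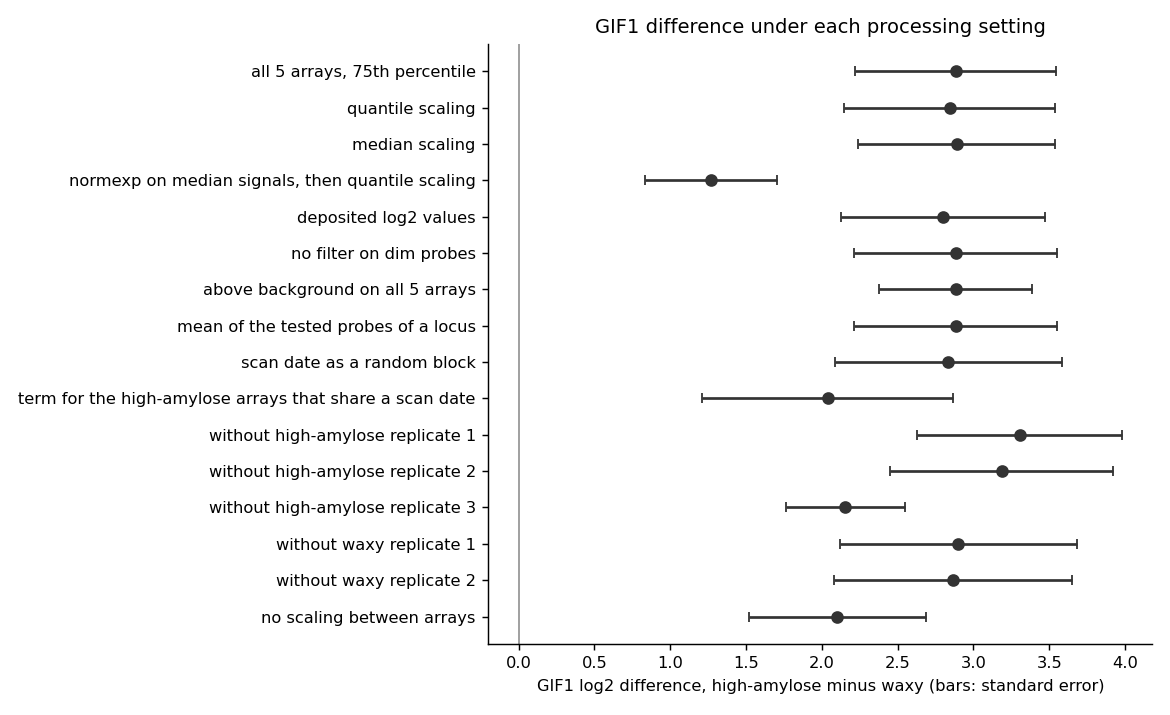
GIF1 log2 difference, high-amylose minus waxy (x axis), with its standard error as bars, for all 5 arrays scaled to the 75th percentile and under each other setting (y axis). The difference was 2.88 with all arrays and 1.27, the lowest of those plotted, under normexp followed by quantile scaling.

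CIN1, the second cell-wall invertase, gave different pictures on its 4 probes, which belong to 3 transcript models. Probe JMULT03211, of model LOC_Os02g33110.2 and with the highest mean, was well above background on all 5 arrays. The files and labels leave the probe name classes undefined, so it is not known whether a JMULT probe, this one or that of LOC_Os04g45290 below, matches several transcripts. It stood on the log2 scale at -0.52, -0.60 and -0.02 on high-amylose replicates 1, 2 and 3, against -0.69 and -0.84 on the waxy arrays. That is a difference of 0.39 (SE 0.42), and the groups lay close, with a gap of 0.10 between them. Without scaling between arrays the sign turned, to -0.39.

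The 2 probes of model LOC_Os02g33110.1 were dimmer and peaked on high-amylose replicate 2. JUNQ26189 was at -3.26, -0.77 and -2.44 on the high-amylose arrays, against -4.39 and -4.56 on the waxy arrays, where it was not well above background. After scaling it was thus at least 2.88-fold higher in high-amylose seed, and at least 1.78-fold without high-amylose replicate 2. The measured log2 difference was 2.32 (means -2.16 and -4.48). A bound of this kind sets the high-amylose mean against, on each waxy array, the lowest signal called well above background or the probe's own, whichever is higher. Unscaled, the processed signal of JUNQ26189 was 19.1, 63.3 and 16.4 on high-amylose replicates 1, 2 and 3. The lowest signal called well above background was 16.5 and 15.8 on waxy replicates 1 and 2. Without high-amylose replicate 2 the bound thus leans on the scaling, and no firm minimum is read from it. JUNQ12426 was at -3.09, -1.21 and -3.05 on the high-amylose arrays, against -3.89 and -3.29 on the waxy arrays, a difference of 1.14 with a gap of 0.20 between the groups. It was well above background on 2 of the 3 high-amylose arrays and on 1 of the 2 waxy arrays. Unscaled, its processed signal on high-amylose replicate 3 was 10.7, below 13.7 and 21.6 on waxy replicates 1 and 2. The gap thus arose with the scaling, and no order is read from it. The probe of model LOC_Os02g33110.3, JUNQ20369, did not clear background on any array. With the 3 tested probes averaged, CIN1 differed by 1.28, so its size depends on the probe that stands for the locus.

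The vacuolar invertase LOC_Os04g45290 was high on 2 of the 3 high-amylose arrays. On probe JMULT04214 its log2 signal was -3.57, -1.03 and -0.47 on high-amylose replicates 1, 2 and 3, against -4.20 and -3.44 on waxy replicates 1 and 2. High-amylose replicate 1 lay below waxy replicate 2, so the groups overlapped. It was well above background on high-amylose replicates 2 and 3 and on waxy replicate 2.

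Its mean log2 difference was 2.13 (SE 0.82), with 1 array of each group not well above background. It was 3.07 without high-amylose replicate 1, 1.52 without replicate 3 and 0.25 where replicate 1 alone was set against waxy seed. It was 1.35 with no scaling between arrays and 0.77 under normexp followed by quantile scaling. A second probe of the locus, JUNQ17156, for another transcript model, did not clear background on any array.

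CIN3 and the vacuolar invertase LOC_Os02g01590, with 1 probe each, did not clear background on any array. The processed signal of CIN3, the neighbour of GIF1, was 4.28, 3.80 and 3.31 on high-amylose replicates 1, 2 and 3, against 4.58 and 4.51 on the waxy arrays. That of LOC_Os02g01590 was 4.08, 3.64 and 3.04 on the high-amylose arrays, against 4.25 and 4.20 on the waxy arrays. The lowest signal called well above background was 13.1 to 15.5 on the high-amylose arrays and 15.8 to 16.5 on the waxy arrays. Unscaled, both probes were lower on every high-amylose array. After scaling to the 75th percentile both were higher there, so no order is read from them.

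Of the 5 members, 3 had a probe well above background on at least 2 arrays and entered the fit over 28945 loci. At a limma adjusted p under 0.05 (Benjamini-Hochberg over all loci), 0 of these 3 were called, against 0.0276% of all loci. GIF1 and the brightest CIN1 probe had high-amylose arrays that all lay above both waxy arrays, a pattern found at 8.52% of all loci. Nothing is read from either count, since GIF1 was chosen by this contrast. For scale, the median absolute log2 difference over all loci was 0.26, and 66 loci (0.228%) differed by at least as much as GIF1.

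The loci beside GIF1 on chromosome 4 were also measured. Of the 20 array loci nearest to it by locus name, 10 on each side, 15 were tested, of which 11 were higher and 4 lower in high-amylose seed, with a median log2 difference of 0.15, against 0.03 over all loci. Every high-amylose array exceeded both waxy ones at 0 of the 15, against 8.52% of all loci, and nothing is read from so small a count. LOC_Os04g33830, also picked out after its values were seen, had the largest positive difference, 2.24 (SE 1.16), with overlapping groups. At 1 of them, LOC_Os04g33700, picked out after its values were seen, all high-amylose arrays lay below both waxy arrays, as at 5.03% of all loci, with a difference of -1.76 (SE 0.47, limma adjusted p = 0.867). Limma called 0 of the 15, against 0.0276% of all loci, and 1 of the 15 had an unadjusted p under 0.05, against 983 of 28945 loci.

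Among further loci of sucrose cleavage and sugar transport, none was called. Of 56 such loci, 44 were tested, 23 higher and 21 lower in high-amylose seed, with a median log2 difference of 0.02, against 0.03 over all loci. Limma called 0 of the 44 (smallest adjusted p = 1.00), against 0.0276% of all loci. An unadjusted limma p under 0.05 was found at 4 of them, against 983 of 28945 loci. Every high-amylose array exceeded both waxy ones at 6 loci (13.6%), against 8.52% of all loci, and lay below both at 2 (4.55%), against 5.03% of all loci. Among the 6, and among the 4, is CIN7, described below, which was well above background on high-amylose arrays only and so passed the filter through that group. Nothing is read from these counts.

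The 5 further cell-wall invertases, of the same enzyme family as GIF1, had positive differences from 0.05 to 1.82, with a median of 0.31. CIN5 (LOC_Os04g56920) was at 0.66, 1.83 and 3.44 on high-amylose replicates 1, 2 and 3, against 0.69 and -0.37 on the waxy arrays, a difference of 1.82 (SE 0.74) with overlapping groups. It was 1.43 under normexp followed by quantile scaling, where GIF1 was at 1.27, and 0.50 where high-amylose replicate 1 alone was set against waxy seed. Here too high-amylose replicate 3 was highest, and replicate 1 lay within the waxy range. CIN7 (LOC_Os09g08072) was at -3.94, -2.63 and -2.62 on the high-amylose arrays and was not well above background on either waxy array, at -4.46 and -4.42. It was well above background on 2 of the 3 high-amylose arrays, and so passed the filter through that group only. The measured difference was 1.37 (SE 0.51), 0.50 with replicate 1 alone against waxy seed and 0.23 under normexp followed by quantile scaling. That is 2.59-fold as measured, where the bound described for JUNQ26189 gave 1.53-fold. High-amylose replicate 1, which enters that bound, was itself not well above background. Under quantile scaling 4 of the 5 were higher, and 2 where high-amylose replicate 1 alone was set against waxy seed.

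Sucrose synthases, the other route of sucrose cleavage, had 2 loci higher and 2 lower of 4 tested, with a median of 0.27. With high-amylose replicate 1 alone set against waxy seed, 4 were higher and 0 lower (median 0.95). Without that replicate 2 were higher and 2 lower (median -0.11). SUS2 (LOC_Os06g09450) was at 3.17, 2.36 and 2.46 on the high-amylose arrays, against 1.61 and 1.97 on the waxy arrays. That is a difference of 0.88 (SE 0.44), without overlap after scaling. SUS2 differed by 0.096 with no scaling between arrays, where the median of all loci moved to -0.74. SUS3 (LOC_Os07g42490) differed by 0.82 (SE 0.61) with overlap, by 0.016 without waxy replicate 1 and by 1.61 without waxy replicate 2. Neutral and alkaline invertases, which cleave sucrose outside the vacuole and the cell wall, had 2 positive and 4 negative differences among 6 loci (median -0.22). LOC_Os01g22900 was at -0.56 (SE 0.55) and LOC_Os02g34560 at -0.47 (SE 0.49), both with overlapping groups. Without high-amylose replicate 3, 4 of the 6 were higher and 2 lower (median 0.13). With high-amylose replicate 1 alone set against waxy seed, 6 were higher and 0 lower (median 0.31), these loci at 0.22 and 0.33.

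Monosaccharide transporters, which can carry the hexoses released by cell-wall invertases, together with the hexose carrier SWEET4 had positive differences at 5 of 6 loci (median 0.58). MST6 (LOC_Os07g37320) was at -0.03, 1.25 and 0.04 on high-amylose replicates 1, 2 and 3, against -0.88 and -0.50 on the waxy arrays, a difference of 1.11 (SE 0.50). MST4 (LOC_Os03g11900) was at -0.44, 0.27 and -0.56 on the high-amylose arrays, against -1.26 and -1.40 on the waxy arrays, a difference of 1.09 (SE 0.44). In both the groups did not overlap after scaling and high-amylose replicate 2 was highest. Neither was called (limma adjusted p = 1.00). With no scaling between arrays MST6 differed by 0.33 and MST4 by 0.31, and 2 of the 6 loci were higher. That setting moved the median of all loci to -0.74. The list median was 0.16 under normexp followed by quantile scaling, and 0.36 with high-amylose replicate 1 alone against waxy seed.

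Hexokinases and fructokinases, which phosphorylate the released hexoses, had 4 positive and 5 negative differences among 9 loci (median -0.03). HXK8 (LOC_Os01g09460) was at -2.77, -4.84 and -3.55 on the high-amylose arrays, against -1.78 and -2.65 on the waxy arrays, a difference of -1.51 (SE 0.62). Its groups did not overlap, and it was well above background on 1 of the 3 high-amylose arrays. HXK8 was at -1.98 to -0.95 with 1 array left out. It was at -0.56 with high-amylose replicate 1 alone against waxy seed and at -0.33 under normexp followed by quantile scaling. HXK2 (LOC_Os05g44760) was at -0.80 (SE 0.60), and was well above background on 1 of the 3 high-amylose arrays and both waxy arrays. It was at -1.39 to -0.41 with 1 array left out and at 0.36 with high-amylose replicate 1 alone against waxy seed. Sucrose transporters and SWEET sucrose carriers had a median of 0.05 over 7 loci, with SWEET15 (LOC_Os02g30910) at -0.67 (SE 0.52) and SUT1 (LOC_Os03g07480) at 0.61 (SE 0.43). SWEET15 was at 0.013 without waxy replicate 2 and at -1.35 without waxy replicate 1. Enzymes of sucrose synthesis had negative differences at 6 of 7 loci (median -0.37). SPS6 (LOC_Os06g43630) was at -0.75 (SE 0.61) and SPS8 (LOC_Os08g20660) at -0.66 (SE 0.54), and these turned to 0.39 and 0.21 with high-amylose replicate 1 alone against waxy seed. Without high-amylose replicate 3, 3 of these 7 were lower.

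**Figure D3:**
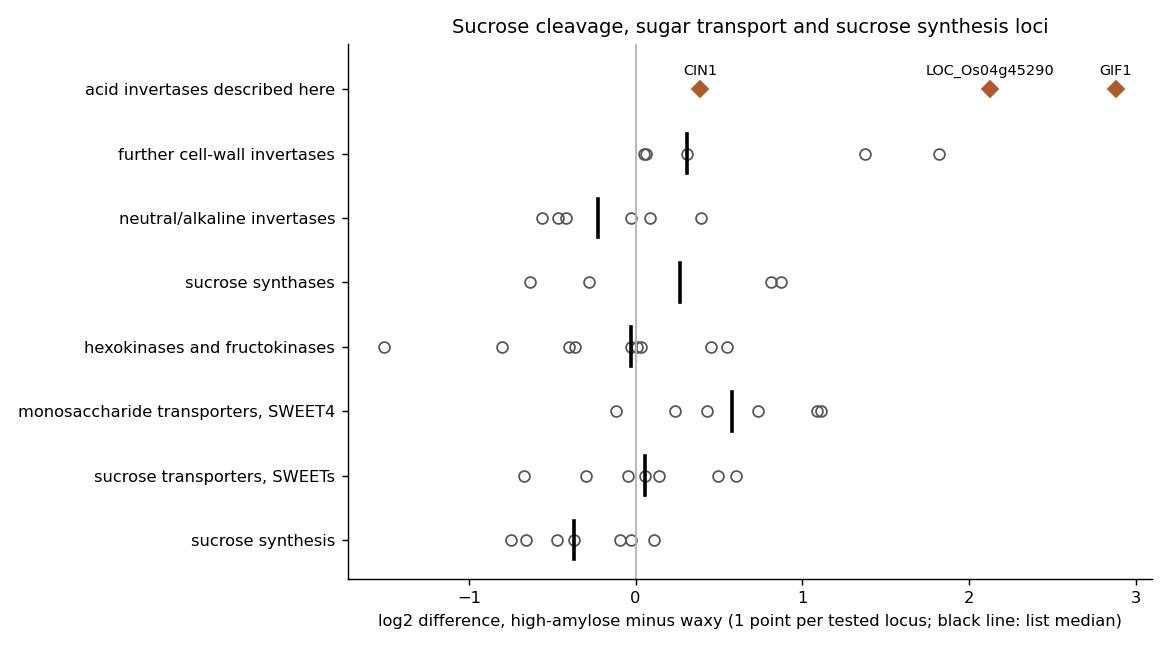
Log2 difference, high-amylose minus waxy (x axis), of the 3 tested acid invertases (brown diamonds, top row) and of 44 further loci in 7 lists (open circles, 1 per locus, with black lines at list medians). GIF1 was at 2.88 and CIN5 at 1.82, and monosaccharide transporters had the highest list median, 0.58.

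Markers of green outer layers of the seed, antenna and other photosynthesis genes, were also high on high-amylose replicates 2 and 3. Of 17 such loci 15 were tested, of which 4 were well above background on high-amylose arrays only and so passed the filter through that group. With no filter, 16 of 17 had positive differences. The 7 that cleared background on each of the 5 arrays had a median of 1.47. With high-amylose replicate 1 alone set against waxy seed, 4 of the 15 were higher and 11 lower (median -0.20). Their median deviation from their own mean over arrays was -1.18, 1.13 and 2.51 on high-amylose replicates 1, 2 and 3, against -1.39 and -0.84 on the waxy arrays. Their summed signal was 2.58 to 34.9 times the 75th percentile on the high-amylose arrays and 2.59 to 3.47 times on the waxy arrays. Of the 15, 7, 14 and 15 were well above background on high-amylose replicates 1, 2 and 3, against 8 and 10 on the waxy arrays.

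GIF1 deviated from its own mean by 0.31, 0.54 and 2.61 on high-amylose replicates 1, 2 and 3, against -1.71 and -1.75 on the waxy arrays. On high-amylose replicate 1, where the median green marker lay between the waxy arrays, GIF1 was 4.10-fold above the waxy mean. LOC_Os04g45290 was not well above background there. The part of green tissue in the values of GIF1, CIN5 and LOC_Os04g45290 was not tested on any array, high-amylose replicate 1 included. That replicate is a single array with its own accession and scan date. Starchy endosperm markers deviated by 0.18, -0.25 and -0.02 on the high-amylose arrays and by -0.01 and -0.02 on the waxy arrays. Of these 9 loci, 5 had positive and 4 negative differences (median 0.13). Their summed signal was 5006 to 5540 times the 75th percentile on the high-amylose arrays and 4299 to 4583 times on the waxy arrays. That sum leans on its brightest locus, alpha-globulin, at 11.3, 11.7 and 11.8 on the high-amylose arrays, against 11.3 and 11.0 on the waxy arrays. It is thus no measure of the list as a whole. Embryo and aleurone markers deviated by 0.31, 0.68 and -0.79 on the high-amylose arrays and by -0.37 and 0.14 on the waxy arrays. Their summed signal was 758 to 1716 times the 75th percentile on the high-amylose arrays and 809 to 1164 times on the waxy arrays.

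**Figure D4:**
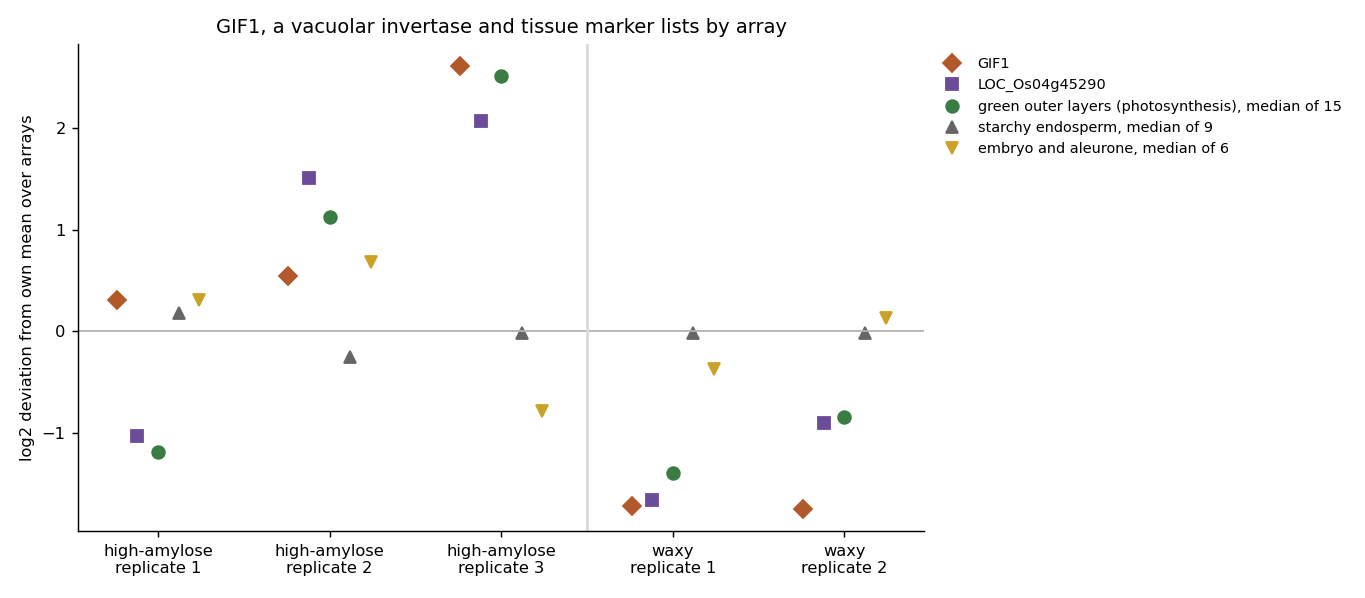
Log2 deviation from the mean over the 5 arrays (y axis) of GIF1, of the vacuolar invertase LOC_Os04g45290 and of the median member of 3 marker lists, on each array (x axis). On high-amylose replicate 1 GIF1 was at 0.31 and the green markers at -1.18, while on replicate 3 they were at 2.61 and 2.51.

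The loci whose values over the 5 arrays were nearest to those of GIF1 were LOC_Os03g44890, LOC_Os05g18530, LOC_Os01g40880, LOC_Os12g14450 and LOC_Os11g37920. Nearness was the root mean square distance of log2 values centred on each locus's mean, over 5 arrays and 22558 loci well above background on all of them. It was 0.36 for LOC_Os03g44890 and 0.54 for the fifth, against a median of 1.60 over all loci compared. LOC_Os03g44890 was at 0.28, 0.94 and 2.90 on high-amylose replicates 1, 2 and 3, against -0.66 and -1.48 on the waxy arrays. On each of these 5 loci high-amylose replicate 3 was highest and replicate 1 lowest of the high-amylose arrays, as at GIF1. They were picked by nearness to GIF1, so nothing is read from this shared order. Among the acid invertases, CIN1 lay at a distance of 1.36 from GIF1. LOC_Os04g45290 lay at 0.86, but it was well above background on 3 arrays and so is not among the 22558 loci.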

How the data were processed

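The authors deposited Agilent Feature Extraction output (version 11.5.1.1, per the file headers), with an intensity per spot that is background-subtracted within an array and not scaled between arrays, and a table of log2 values. Differences between that table's columns followed quantile-normalized log2 intensity (r of 0.9996 to 0.9997 over 10 pairs of arrays, slopes of 0.989 to 0.992). Its baseline per probe stays unknown, its column medians were -0.0172, 0.0395, 0.0270, -0.0227 and 0.00414 (high-amylose replicates 1 to 3, waxy 1 and 2), and the submitters' processing notes name limma. Flags mark spots well above background and outliers, per the file headers.

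Outlier spots were left out unless a probe had no other. The log2 intensity minus the log2 75th percentile of each array was used for 35634 of 59676 probes, those well above background on at least 2 arrays. The probe with the highest mean stood for each of 28945 loci. The fit over all loci used limma 3.58.1 in R 4.3.3 (two-sided, no covariate, Benjamini-Hochberg), and this fit was tested on simulated data. The files give no spot mean, so normexp (offset 50) used median signals, and quantile scaling followed it. An exact permutation of 1 value cannot go below 0.1 here.

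Members and lists were chosen with earlier results of these data known. The text names all 5 members, the 2 loci of each list that differed most, and the 5 loci nearest to GIF1. Replicate numbers follow deposit order and pair no arrays. Gene names of listed loci are those in common use for these locus names and were not checked against a table.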

Additional observations from a re-analysis of the deposited data

How the results depend on the processing

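GIF1 stayed higher in high-amylose seed under every setting run, with log2 differences of 2.16 to 3.30 when 1 array was left out. Under normexp followed by quantile scaling it was 1.27. That setting used median signals, another background correction and an offset of 50, which exceeds the processed signal of GIF1 on both waxy arrays. What part each of these had in the lower value was not tested. GIF1 passed limma only where the fit was restricted to loci detected on all 5 arrays, which is no support since it was chosen by this contrast. CIN1 was at 0.21 to 0.50 with 1 array left out. It was at 1.28 as the mean of its probes, at 1.14 for JUNQ12426, at 2.32 for JUNQ26189, and at -0.39 with no scaling, a setting added after seeing the data that moved the median of all loci to -0.74. LOC_Os04g45290 was at 1.52 to 3.07 with 1 array left out and at 0.25 with a term for the high-amylose arrays that share a scan date. Over all loci limma called 8. It called 3 under quantile scaling, 3 in the deposited log2 values, 3 with no scaling and 21 with that restriction. Leaving out 1 array gave 3 (without high-amylose replicate 3) to 179 (without waxy replicate 2), with 5 without high-amylose replicate 2 and 72 without waxy replicate 1. It called 0 under that normexp setting and 0 with the scan date term, with 644 and 1162 loci at an unadjusted p under 0.05. Pathway loci called were 0 under every setting run. Where the settings moved a value and nothing is said of it, the cause was not tested. No paired analysis was possible because replicate numbers follow deposit order. The number of arrays limits the precision, with a median standard error of 0.46 over all loci.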
